A study of Mus musculus with 7 samples.

Results

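The MCM genes are 9 protein-coding genes, Mcm2, Mcm3, Mcm4, Mcm5, Mcm6, Mcm7, Mcm8, Mcm9 and Mcm10, chosen by name from the 21631 protein-coding RefSeq genes on the autosomes and chromosome X. The 9 genes were asked for replication origins of their own: each was taken as its gene body on mm10 with 5 kb on either side, and the origins and peaks that overlapped this window by at least 1 bp were collected. Origins had been mapped in mouse embryonic stem cells (mESCs) by sequencing short nascent strands, the RNA-primed DNA pieces that form where a fork has just left its origin. APH 1 and APH 2 came from TetO-CDC6 mESCs, which carry a doxycycline-inducible CDC6 transgene, kept in 0.5 µM aphidicolin, a replicative polymerase inhibitor, for 2.5 h. CDC6 1 and CDC6 2 came from the same TetO-CDC6 mESCs in which CDC6, a protein that helps to load the helicase, was overexpressed by 30 h of doxycycline at 1 µg/ml. WT 2 came from untreated TetO-CDC6 mESCs, and WT 1 from untreated wild-type mESCs that were grown in another medium and had been submitted before. The 5 TetO-CDC6 libraries thus share the transgene, the untreated one included. The sonicated Input sample was not analysed here.

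Mcm2 to Mcm7 encode the subunits of the MCM2-7 hexamer, which is loaded on origin DNA before S phase by ORC, CDC6 and CDT1 and then, joined by CDC45 and GINS, unwinds the DNA ahead of the fork. Cells load many more hexamers than they fire, and the surplus marks dormant origins that can be used when forks are slowed. MCM8 and MCM9 form a separate hexameric helicase with roles in homologous recombination, and MCM10, which is not related to the MCM2-7 fold, helps to activate the loaded helicase. Genes of the hexamer are known targets of E2F factors, and nascent strand origins are known to lie often at CpG-rich gene starts.

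At 3 of the genes (Mcm3, Mcm6 and Mcm8) an origin of every condition overlapped the promoter window, and these sequences are shown first. Those of Mcm5, whose window an origin of the CDC6 list overlapped, and of Mcm10, which had an origin of the WT list just inside the gene, follow. The RefSeq promoter table (GRCm38.p6, the same assembly as mm10) gave 9 entries for 8 of the 9 genes (not Mcm4), Mcm7 having more than 1 start. Each sequence runs 5′ to 3′ from 250 bases before the start to 50 bases after it. Capitals mark E2F-type sites and CCAAT boxes, read on either strand. The Mcm3 window is chr1:20820263-20820562 (minus strand), the Mcm6 window chr1:128359656-128359955 (minus strand), the Mcm8 window chr2:132815891-132816190 (plus strand), the Mcm5 window chr8:75109259-75109558 (plus strand) and the Mcm10 window chr2:5012742-5013041 (minus strand).
Mcm3: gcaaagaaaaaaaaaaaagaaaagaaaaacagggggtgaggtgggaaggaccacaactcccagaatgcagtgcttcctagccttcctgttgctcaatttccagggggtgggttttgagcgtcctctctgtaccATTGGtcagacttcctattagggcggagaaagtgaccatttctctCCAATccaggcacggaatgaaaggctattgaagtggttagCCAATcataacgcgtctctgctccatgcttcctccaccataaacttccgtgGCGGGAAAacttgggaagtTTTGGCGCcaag
Mcm6: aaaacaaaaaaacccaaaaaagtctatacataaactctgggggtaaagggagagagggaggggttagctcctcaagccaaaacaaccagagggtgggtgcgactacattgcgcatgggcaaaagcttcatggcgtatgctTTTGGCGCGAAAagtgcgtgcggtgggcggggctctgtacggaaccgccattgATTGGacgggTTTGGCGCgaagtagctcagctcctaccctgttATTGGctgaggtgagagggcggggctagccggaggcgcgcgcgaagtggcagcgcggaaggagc
Mcm8: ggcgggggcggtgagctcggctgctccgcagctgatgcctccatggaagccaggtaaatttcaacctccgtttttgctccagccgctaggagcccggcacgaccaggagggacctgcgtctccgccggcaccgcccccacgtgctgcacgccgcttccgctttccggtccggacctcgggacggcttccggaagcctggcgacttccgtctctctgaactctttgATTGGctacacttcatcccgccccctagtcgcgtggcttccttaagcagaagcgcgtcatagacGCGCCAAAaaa
Mcm5: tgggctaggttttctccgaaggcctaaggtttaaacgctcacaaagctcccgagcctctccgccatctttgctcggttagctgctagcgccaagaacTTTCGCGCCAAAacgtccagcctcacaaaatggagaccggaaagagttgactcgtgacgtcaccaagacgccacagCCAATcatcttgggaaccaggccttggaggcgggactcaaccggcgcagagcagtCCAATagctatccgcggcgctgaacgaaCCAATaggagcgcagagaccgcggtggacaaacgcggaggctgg
Mcm10: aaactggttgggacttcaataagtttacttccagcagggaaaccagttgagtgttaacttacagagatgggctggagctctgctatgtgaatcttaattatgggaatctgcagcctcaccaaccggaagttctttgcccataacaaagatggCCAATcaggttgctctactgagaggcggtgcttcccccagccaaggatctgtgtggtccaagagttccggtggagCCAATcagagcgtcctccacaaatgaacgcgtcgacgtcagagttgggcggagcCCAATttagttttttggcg

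The E2F-type sites searched were TTTCCCGC, TTTGGCGC, TTTCGCGC and TTTGCCGC on both strands, some of which overlapped each other. Mcm3 held 2 of them, Mcm5 held 2, Mcm6 held 3, Mcm7 held 2 and Mcm8 held 1, so 5 of the 8 genes had at least 1, against 2.88% of 21045 promoters of protein-coding genes. Mcm2, Mcm9 and Mcm10 held none of these letters in the window. The CCAAT box (CCAAT, both strands) was present in all 9 entries, against 38.5% of all promoters. A G-quadruplex pattern, that is 4 tracts of at least 3 G with loops of 1 to 7 bases on either strand, was found in 2 of 9 entries (Mcm2 and Mcm6), against 22.3% of all promoters. The GC content of the entries ran between 48.7% (Mcm3) and 70% (Mcm9), beside a median of 56.7% over all promoters, and the number of CpGs between 8 (Mcm3) and 35 (Mcm9), beside a median of 13. Mcm3 had the fewest CpGs of the 9 entries. Its listed origins met only the 3′ part of this window, being centred 453 (APH), 445 (CDC6) and 530 bp (WT) inside the gene. The CpG count of the window thus does not describe the Mcm3 origins. The window of Mcm9, with the most CpGs, met no listed origin, though all 6 libraries had a peak there. A match of letters is a description of the sequence and not a binding site.

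The 3 condition lists hold 31653 origins for APH, 31384 for CDC6 and 20178 for WT. Each library also has a MACS peak list, with 74540 and 71435 peaks in the APH libraries, 72384 and 82071 in the CDC6 libraries, and 94747 and 81056 in the WT libraries. For every MACS peak the authors gave a fold over the control and a −log10 q. Within a library, the peaks were ranked by −log10 q and the rank expressed as a percentile, so that 100 is the strongest peak of that library. Read numbers are not known, folds of different libraries were not tested against each other, and the number of libraries limits the precision. MACS peaks of a condition met 99.4% to 100% of the origins in the list of the same name.

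**Figure D1:**
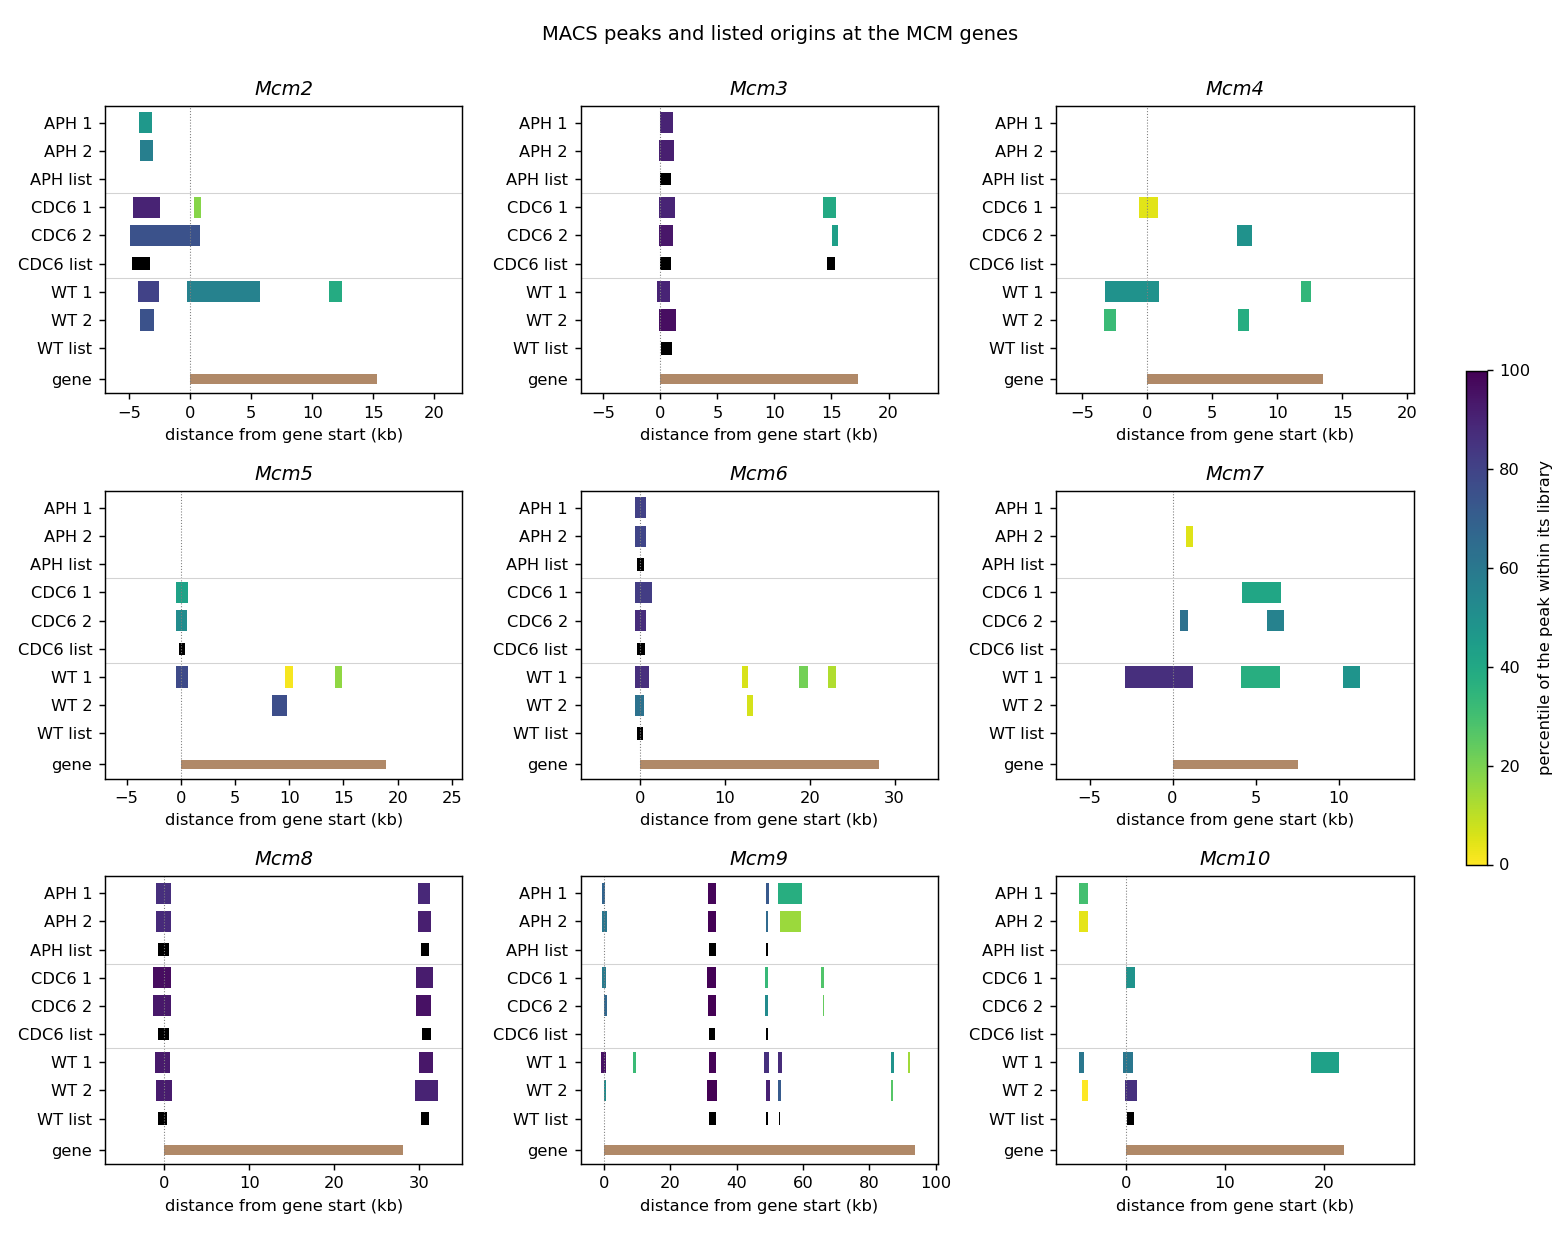
MACS peaks of the 6 libraries (coloured by their percentile within the library) and listed origins of the 3 conditions (black) along each MCM gene, drawn by distance from the gene start in kb; for Mcm4 the distance runs from the end next to Prkdc. Peaks stack in all 6 libraries at the starts of Mcm3, Mcm6, Mcm8 and Mcm9, at inner sites of Mcm9, beyond the 3′ end of Mcm8 and upstream of Mcm2. Mcm4 and Mcm5 had no peak in either APH library.

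Of the 9 genes, 4 had an origin in the APH list (Mcm3, Mcm6, Mcm8, Mcm9), 6 in the CDC6 list (the same 4 with Mcm2 and Mcm5) and 5 in the WT list (the same 4 with Mcm10). Over all protein-coding genes, 53.6% had an origin of the APH list in the same window, 58.5% of the CDC6 list and 48.1% of the WT list, so the counts for the MCM genes lay near those shares. An origin that overlapped the window from 250 bp before the start to 50 bp after it was listed for 3 of 8 genes in APH (Mcm3, Mcm6, Mcm8), 4 of 8 in CDC6 (these and Mcm5) and 3 of 8 in WT (Mcm3, Mcm6, Mcm8). The share of all genes was 28.9% for APH, 36.1% for CDC6 and 27.9% for WT. Each condition has 1 list, so these counts carry no replicate error. When overlapping MACS peaks of both libraries were counted in place of listed origins, 6 MCM genes qualified in APH (69.5% of all genes), 7 in CDC6 (73.4%) and 8 in WT (66%), and the WT count thus depended on which list was used.

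In the hexamer genes, Mcm3 had the most even start origin. MCM3 is the subunit that, in budding yeast, contacts ORC and CDC6 during loading. The origin lay at chr1:20819410-20820309 in the APH list, chr1:20819400-20820335 in the CDC6 list and chr1:20819282-20820283 in the WT list, centred 453, 445 and 530 bp inside the gene. The CDC6 origin covered the annotated start at 20820312, and the APH and WT origins ended inside the gene, short of it. The peak over it had a fold of 4.16 and 4.54 in the APH libraries, 4.27 and 4.82 in the CDC6 libraries, and 3.88 and 4.21 in the WT libraries, replicate 1 before replicate 2 here and in the pairs that follow. Its percentile was 90.2 and 91.7 in APH, 90.0 and 94.1 in CDC6, and 90.0 and 96.4 in WT. All 6 libraries placed this site in the upper part of their lists. By percentile the groups overlapped, while by fold both CDC6 libraries were above both WT libraries and APH and WT overlapped. Further into the gene, 14962 bp from the start, the CDC6 list held another origin of 691 bp, with peaks in CDC6 1 (2.38-fold, percentile 39.6) and CDC6 2 (2.70-fold, percentile 43.8). Neither APH nor WT had a peak there in either library, and it brought Mcm3 to 2 peaks in each CDC6 library, against 1 in each WT library.

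Mcm6, another hexamer subunit, had its listed origin at chr1:128359245-128360045 in APH, chr1:128359130-128360088 in CDC6 and chr1:128359318-128360026 in WT, each across the start. The fold was 3.52 and 3.39 in APH, 3.52 and 4.04 in CDC6, and 3.73 and 2.62 in WT. WT 2 had the lowest value of the 6 and WT 1 the second highest, so the WT pair spanned most of the range and the groups overlapped. Beyond this site Mcm6 had 3 weaker sites within the gene, 1 shared by WT 1 and WT 2 and 2 found in WT 1 alone, all at percentiles of 21.5 or less. No APH or CDC6 library had a peak at any of these inner sites.

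At Mcm5 the start peak was present in CDC6 and in 1 WT library. It had a fold of 2.25 in CDC6 1, 2.55 in CDC6 2 and 2.90 in WT 1, with percentiles of 42.3, 51.6 and 77.6, and no peak in APH 1, APH 2 or WT 2. The CDC6 list placed an origin of 580 bp across the start (chr8:75109298-75109877). WT 2 instead had its peak 9106 bp into the gene at 2.88-fold, where WT 1 had a weak one of 2.11-fold. Mcm5 is on chromosome 8, where WT 1 had 8.26% of its peaks. In the other libraries this share was 4.86% to 5.53%, and its part in the Mcm5 values was not tested.

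Mcm2 had no origin at its own start in any list. The CDC6 list held an origin of 1413 bp at chr6:88902116-88903528, centred at -4042 bp from the Mcm2 start and covering the start of the neighbour Tpra1, whose gene begins 3470 bp from Mcm2. Peaks at that place had a fold of 2.49 and 2.57 in APH, 4.09 and 3.02 in CDC6, and 3.21 and 2.72 in WT, and percentiles of 46.7 and 57.1 in APH, 90.4 and 74.6 in CDC6, and 80.3 and 74.7 in WT. Both APH libraries were below both WT libraries, while CDC6 and WT overlapped. In CDC6 2 that peak was a broad one which also reached the Mcm2 start. The difference in percentile between APH and WT was -25.6 ± 7.14 points (SE, n = 2 each, 95% interval -45.4 to -5.78), with an adjusted p of 0.443 in limma.

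Mcm4 stood at the weak end. It lies head to head with Prkdc, the gene of the DNA-PK catalytic subunit, with 43 bp between the gene bodies, and no list held an origin in its window. APH 1 and APH 2 had 0 peaks, CDC6 1 and CDC6 2 had 1 each, and WT 1 and WT 2 had 2 each. Both APH libraries and both CDC6 libraries were below both WT libraries. The peak of CDC6 1 lay at the end next to Prkdc at 1.94-fold (percentile 4.64), and that of WT 1 reached it at 2.46-fold (percentile 49.4). In CDC6 2 and WT 2 the strongest peak was 7463 and 7395 bp from that end, at percentiles of 49.6 and 37.9. No peak at Mcm4 passed the middle of its library's ranking.

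Mcm7, whose first stretch overlaps Ap4m1 by 91 bp and whose body carries Mir25, Mir93 and Mir106b, also had no listed origin. APH 2 had a weak peak of 2.04-fold (percentile 4.74) and APH 1 had none. The strongest peak was 2.20-fold in CDC6 1 (percentile 40.6) and 2.93-fold in CDC6 2 (63.1), against 3.61-fold in WT 1 (86.7) and no peak in WT 2. The WT pair was thus the most divided, with 3 peaks in WT 1 and 0 in WT 2. A site at these miRNA genes, which form the miR-106b-25 cluster, had peaks in CDC6 1 (2.20-fold), CDC6 2 (2.55-fold) and WT 1 (2.31-fold), and none in APH 1, APH 2 or WT 2. The WT 1 peak overlapped Mir93 and Mir106b but began beyond Mir25.

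Of the MCM8-MCM9 pair, Mcm8 begins 82 bp from the body of Trmt6, the gene of a tRNA methyltransferase subunit. An origin covered that start in the APH list (chr2:132815343-132816641), the CDC6 list (chr2:132815331-132816647) and the WT list (chr2:132815366-132816483). The fold was 3.53 and 3.89 in APH, 5.96 and 4.49 in CDC6, and 4.19 and 3.39 in WT. Both CDC6 libraries were above both WT libraries, and APH and WT overlapped. A further origin of all 3 lists lay beyond the 3′ end, 30674 to 30798 bp from the Mcm8 start, over the start of Crls1, the cardiolipin synthase gene. There the fold was 4.12 and 4.77 in APH, 4.83 and 5.28 in CDC6, and 4.83 and 3.47 in WT. Each of the 6 libraries had exactly 2 peaks at Mcm8, with no library differing in number.

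Mcm9 is the longest of the genes, 93.7 kb against a median of 18.97 kb over the 9 genes and 17.3 kb over all coding genes, and it held the strongest site of the set. This site, an origin of 1935 to 2026 bp in all 3 lists (chr10:53596269-53598294 in WT), lay 32643 to 32676 bp inside Mcm9, at the start of Asf1a, the gene of a histone chaperone that works with MCM2-7 at forks and that lies wholly inside Mcm9. The fold there was 7.01 and 9.34 in APH, 8.42 and 8.32 in CDC6, and 7.69 and 6.14 in WT. Percentiles lay between 98.5 and 99.7, so the peak belonged to the strongest few percent in each of the 6 libraries. The start of Mcm9 itself had a peak in all 6 libraries, at 3.01 and 2.73-fold in APH, 2.68 and 3.09-fold in CDC6, and 5.30 and 2.48-fold in WT, and no list called it an origin. WT 1 stood above the other libraries at that start and WT 2 was the lowest. A weaker origin of all 3 lists lay 49044 to 49173 bp inside the gene, and the WT list had 1 more at 52880 bp.

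Mcm10 had an origin in the WT list alone, 700 bp at chr2:5011982-5012681, centred 460 bp inside the gene. Its start peak had a fold of 2.52 in CDC6 1, 2.78 in WT 1 and 3.14 in WT 2, with percentiles of 48.5, 60.4 and 86.1. APH 1, APH 2 and CDC6 2 had no peak there. The APH libraries had only a weak peak at -4233 and -4268 bp, of 2.39-fold (percentile 29.7) and 2.06-fold (percentile 4.11), and CDC6 2 had no peak in the whole window. WT 1 and WT 2 also had a peak at this upstream place, at 2.81 and 2.00-fold.

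**Figure D2:**
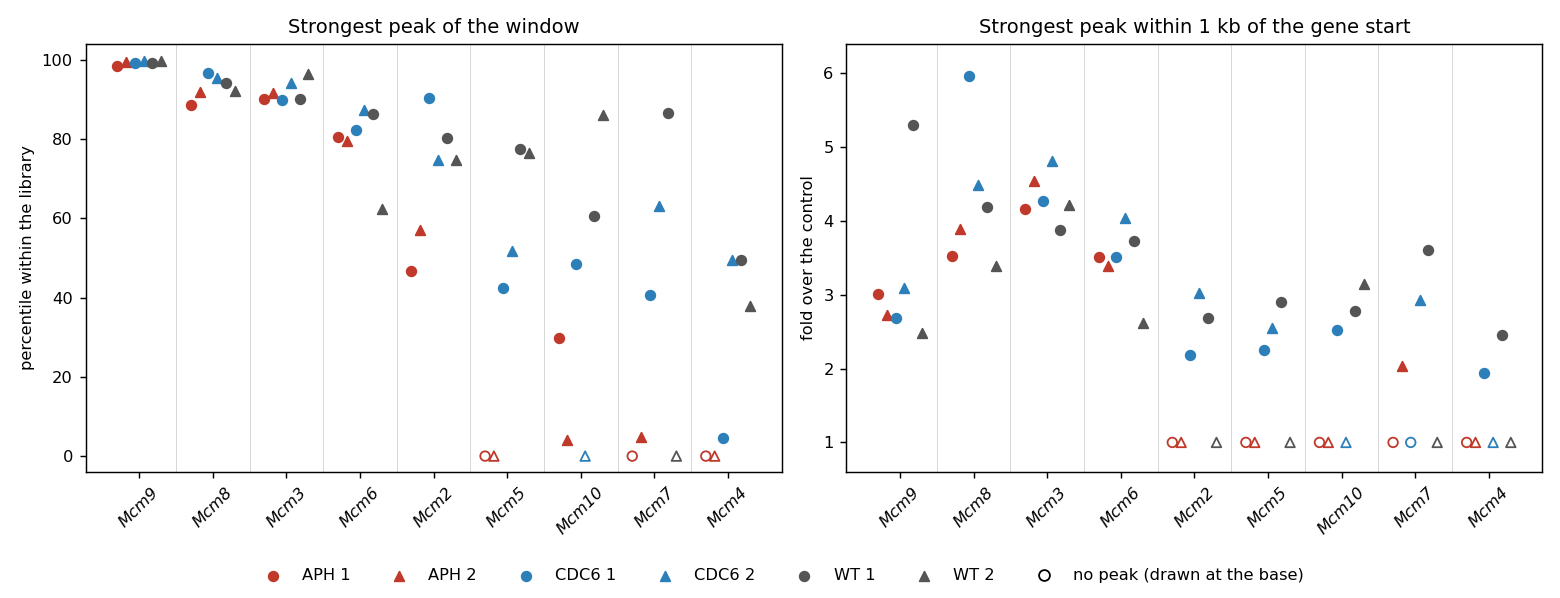
Strength of the strongest peak in each MCM gene window as its percentile within the library (left) and fold over the control of the strongest peak within 1 kb of the gene start (right), for the 2 libraries each of APH, CDC6 and WT; open symbols at the base mark libraries with no peak. Mcm9, Mcm8 and Mcm3 lie between 88.7 and 99.7 in all 6 libraries, while Mcm4, Mcm5, Mcm7 and Mcm10 each have at least 1 library with no peak.

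Ordered by the mean percentile of the strongest peak over the 6 libraries, with a library without a peak set to 0, Mcm9 came first at 99.3 ± 0.43 (SD, n = 6). It was followed by Mcm8 at 93.2 ± 2.88, Mcm3 at 92.1 ± 2.64, Mcm6 at 79.7 ± 9.08 and Mcm2 at 70.6 ± 16.0. Mcm5 at 41.3 ± 34.9, Mcm10 at 38.2 ± 33.4, Mcm7 at 32.5 ± 36.9 and Mcm4 at 23.6 ± 24.6 closed the order. The ranges of neighbours were separate only between Mcm9 and Mcm8 and between Mcm3 and Mcm6, and all other neighbours overlapped. The genes of the hexamer were spread over this order, which pools the conditions. In the WT libraries alone Mcm3 (93.2) and Mcm8 (93.2) were level, Mcm2 (77.5) and Mcm5 (77.0) stood above Mcm6 (74.3), and Mcm7 (43.3) and Mcm4 (43.7) were lowest. The mean for Mcm5 was 0 in APH, 47.0 in CDC6 and 77.0 in WT. The WT mean joined the start peak of WT 1 with a peak of WT 2 that lay 9106 bp into the gene. Mcm9, Mcm8 and Mcm2 owed their strongest peak in some or all libraries to a site at the start of a neighbouring gene (Asf1a, Crls1 and Tpra1).

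Joined across libraries by overlap, the peaks of the 9 windows formed 30 sites. Of these, 8 (26.7%) were present in all 6 libraries, against 15.2% of 164160 such sites over the autosomes and chromosome X. The latter include sites away from genes, and the share for the windows of all coding genes was not computed. The 8 sites are given in turn. They belonged to Mcm3, Mcm6, Mcm8 (2 sites), Mcm9 (3 sites) and Mcm2, where the site was joined through the broad CDC6 2 peak. Of the 8, 5 reached within 1 kb of the MCM gene's own start, though only 3 libraries had a peak that near the Mcm2 start. The sites at Crls1 and Asf1a, not among those 5, lay over the starts of these neighbours. Another 9 of the 30 sites were found in 1 library, and all 9 in WT 1. Of the 65742 single-library sites of the genome, 45.9% were from WT 1. Beside this, WT 1 had the most peaks of all libraries and came from the other mESC line, and the part of either in these sites was not tested.

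**Figure D3:**
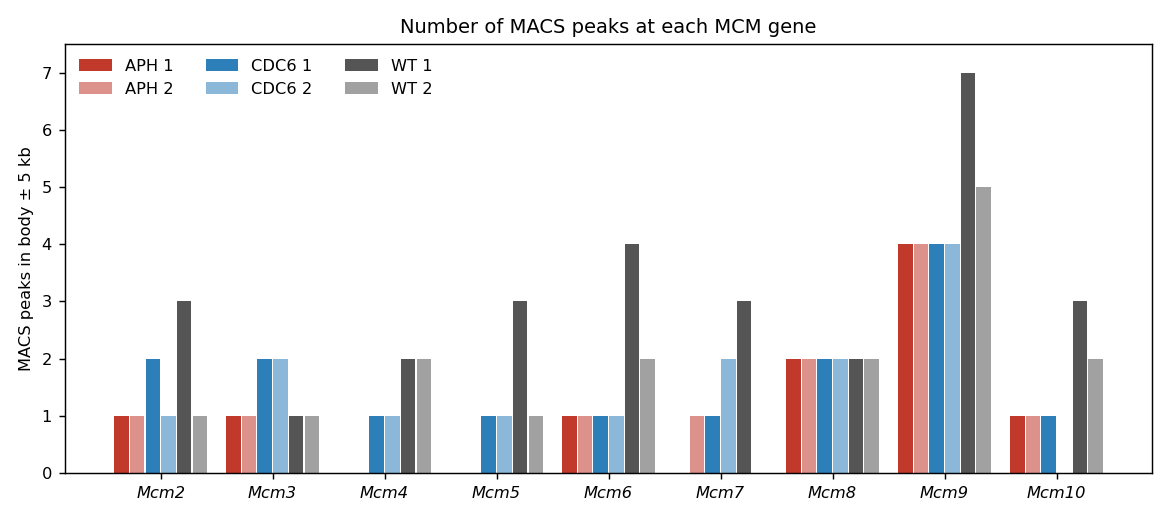
Number of MACS peaks overlapping each MCM gene with 5 kb on either side, as 1 bar per library for APH 1 and 2, CDC6 1 and 2, and WT 1 and 2. A missing bar means 0 peaks; Mcm8 has 2 in every library and Mcm4 and Mcm5 have none in APH.

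Summed over the 9 genes, APH 1 and APH 2 had 10 and 11 peaks, CDC6 1 and CDC6 2 had 15 and 14, and WT 1 and WT 2 had 28 and 16. The APH libraries were the lowest and WT 1 was far above the rest. Per MCM gene this was a mean of 1.111 and 1.222 peaks in APH, 1.67 and 1.56 in CDC6, and 3.11 and 1.78 in WT. Per gene of all protein-coding genes the mean was 1.94 and 2.01 in APH, 2.30 and 2.49 in CDC6, and 2.96 and 2.08 in WT. The MCM genes thus had fewer peaks than the mean gene in 5 libraries and slightly more in WT 1. These means were not adjusted for gene length. At least 1 peak was present in 6 and 7 of the 9 genes in APH 1 and APH 2 (74% and 74.9% of all genes), 9 and 8 in CDC6 1 and CDC6 2 (78.1% and 79.2%), and 9 and 8 in WT 1 and WT 2 (82.3% and 74.8%). A peak within 1 kb of the start, or for Mcm4 of the end next to Prkdc, was present in 4 and 5 genes in APH, 8 and 7 in CDC6, and 9 and 5 in WT. Some of these were broad peaks that reached the start, in WT 1 at Mcm2 (5972 bp), Mcm4 (4151 bp) and Mcm7 (4076 bp), and in CDC6 2 at Mcm2 (5667 bp). Among these genes the APH libraries and WT 2 had fewer start peaks, counted in this way, than the CDC6 libraries and WT 1. The share of all protein-coding genes with such a start peak was not computed. Whether this order is particular to the MCM genes was therefore not tested.

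By the number of peaks as deposited, both APH libraries were below both WT libraries at 5 of the 9 genes (Mcm4, Mcm5, Mcm6, Mcm9 and Mcm10), against 12.8% of all genes. They were above both WT libraries at none, against 3.04% of all genes. Both CDC6 libraries were below both WT libraries at 4 genes (Mcm4, Mcm6, Mcm9 and Mcm10), against 7.23% of all genes, and above them at Mcm3 alone, against 5.86%. The comparisons with APH and with CDC6 share the WT libraries, and these numbers were not scaled to the library totals.

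**Figure D4:**
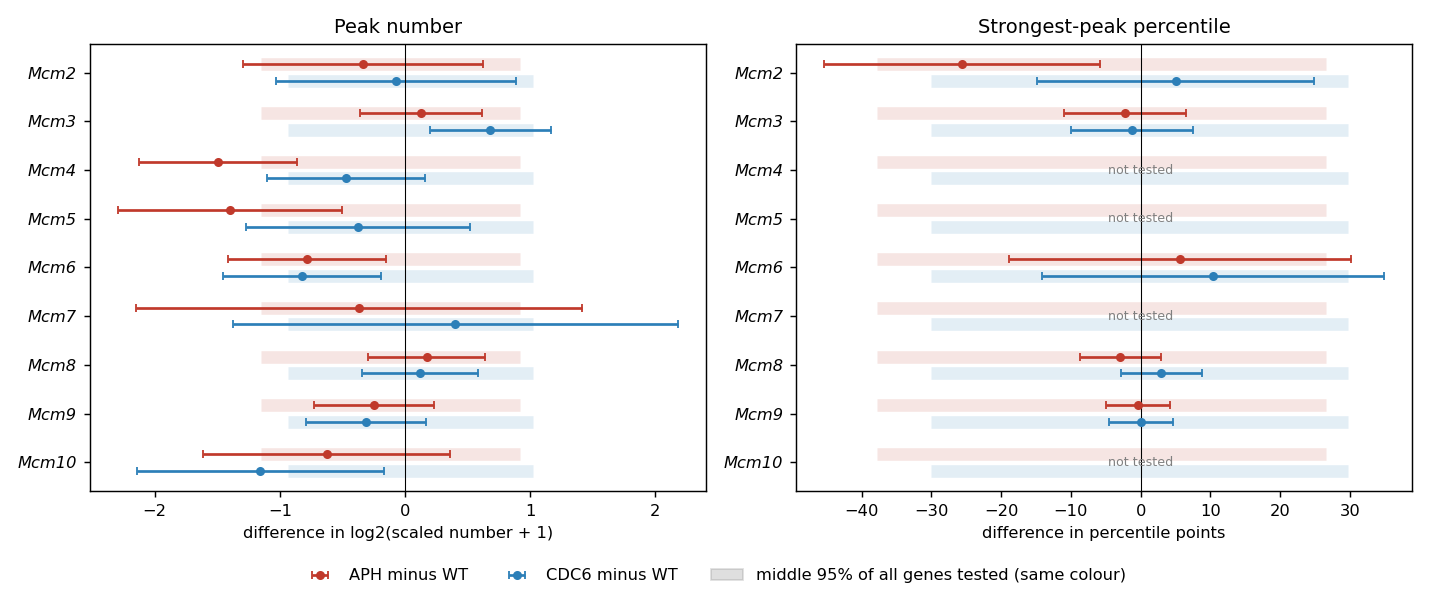
Difference from WT at each MCM gene in log2(scaled peak number + 1) (left) and in percentile points of the strongest peak (right), for APH (red) and CDC6 (blue), as the limma estimate with its 95% interval; shaded bands hold the middle 95% of all genes tested. Mcm4 and Mcm5 in APH and Mcm10 in CDC6 fall below their bands, and no MCM gene passed the test.

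For the test across genes, the number of peaks was scaled to the mean library total, log2(scaled number + 1) was compared with limma over the 19450 genes with a peak in any library, and p-values were adjusted by Benjamini and Hochberg. With 2 libraries a condition, these p-values measure the spread between libraries. Within APH and within CDC6 this spread may be technical, since separate cultures are not stated. Between WT 1 and WT 2 it also holds the mESC line and the medium. Line and treatment cannot be fully told apart in the differences from WT. No gene was called at an adjusted p under 0.05, for APH minus WT (0%, with 1759 genes at an unadjusted p under 0.05) or for CDC6 minus WT (0%, with 1706). At Mcm4 the APH difference was -1.49 ± 0.25 (SE, n = 2 each; adjusted p = 0.353 in limma), at Mcm5 it was -1.40 ± 0.35 (adjusted p = 0.353) and at Mcm6 -0.78 ± 0.25 (adjusted p = 0.398). In limma the other 6 genes lay between -0.63 (Mcm10) and 0.17 (Mcm8), with adjusted p between 0.715 and 0.832. Over the 9 genes the median was -0.37, with 7 below 0 and 2 above, against a median of -0.02 over all genes tested, of which 50.9% were below 0.

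For CDC6 minus WT the differences in peak number ran between -1.15 ± 0.39 at Mcm10 (adjusted p = 0.482 in limma) and 0.68 ± 0.19 at Mcm3 (adjusted p = 0.372). The Mcm10 value was -1.69 without CDC6 1 and -0.62 without CDC6 2. Mcm6 had -0.82 ± 0.25 (adjusted p = 0.409 in limma), and Mcm4 and Mcm9 had -0.47 and -0.31. Of the 9 genes, 6 were below 0 and 3 above, with a median of -0.31 against 0.10 over all genes tested. Of all genes tested, 37.9% were below 0 and 61.1% above. None of these passed the test. Without WT 2, Mcm4, Mcm5 and Mcm6 passed for APH minus WT (adjusted p = 0.0443 in limma for each, among 607 genes called), and without WT 1 none of the 9 did, with adjusted p of 0.0629 at Mcm4, 0.0706 at Mcm5 and 0.0934 at Mcm6. Without WT 1, the only WT library is of the same TetO-CDC6 line as the others, and the differences were -1.56 at Mcm4, -0.98 at Mcm5 and -0.50 at Mcm6.

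The percentile of the strongest peak was compared over the 13441 genes with a peak in all 6 libraries, which left 5 MCM genes (Mcm2, Mcm3, Mcm6, Mcm8 and Mcm9) and left out Mcm4, Mcm5, Mcm7 and Mcm10. For APH minus WT limma called no gene (0%, with 1247 at an unadjusted p under 0.05), and for CDC6 minus WT 1 gene, Vmn2r31, which is no MCM gene and is named after its value was seen (0.00744%, with 964 at an unadjusted p under 0.05). Besides Mcm2, described above, the APH differences were -2.24 ± 3.16 points at Mcm3, 5.67 ± 8.84 at Mcm6, -2.91 ± 2.09 at Mcm8 and -0.37 ± 1.66 at Mcm9. The CDC6 differences were 5.02 ± 7.14 at Mcm2, -1.18 ± 3.16 at Mcm3, 10.4 ± 8.84 at Mcm6, 2.94 ± 2.09 at Mcm8 and 0.06 ± 1.66 at Mcm9. The 95% interval for Mcm9 was -4.97 to 4.23 points in APH and -4.55 to 4.66 in CDC6, while that for Mcm6 was much wider, -18.8 to 30.2 in APH and -14.1 to 35.0 in CDC6.

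Among 33 genes of proteins that load, activate or accompany the helicase (ORC, CDC6, CDT1, geminin, CDC7 and DBF4, the GINS complex, CDC45, TOPBP1, the fork protection proteins and others), 22 had an origin in the APH list, 26 in the CDC6 list and 18 in the WT list. That is 66.7%, 78.8% and 54.5% of the list, beside 44.4%, 66.7% and 55.6% of the MCM genes. Over all protein-coding genes the shares were 53.6%, 58.5% and 48.1%. None of these shares was adjusted for gene length. None of the 33 was called in limma for either measure. The highest mean percentiles of the strongest peak belonged to Asf1a (99.3, the site inside Mcm9), Gins1 (97.3), a GINS subunit, Dbf4 (96.8), the activator of the CDC7 kinase, and Rif1 (95.004), which opposes that kinase, each with an origin in all 3 lists. The median difference in peak number over the 33 genes was -0.09 for APH minus WT and 0.09 for CDC6 minus WT, against -0.02 and 0.10 over all genes tested. Prkdc, which meets Mcm4 head to head, had an origin in the APH and CDC6 lists elsewhere in its window and none in the WT list.

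The genes most like the MCM genes were sought by the mean absolute difference between their strongest-peak percentiles and the medians over the 9 genes in the 6 libraries. These medians were 46.7 and 57.1 in APH, 82.2 and 74.6 in CDC6, and 86.4 and 76.5 in WT, against 67.8 and 71.9 in APH, 76.3 and 76.2 in CDC6, and 83.2 and 66.3 in WT over all protein-coding genes. Medag differed by 2.70 points, Dhh by 3.03 and Rimbp3 by 3.18, out of 21611 genes compared, of which 556 lay within 10 points. Percentiles of the MCM genes themselves ran from 0 (Mcm4) to 99.7 (Mcm9), so a gene near the medians need not resemble any single MCM gene.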

How the data were processed

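Short nascent strands of 3 conditions were sequenced, with 2 libraries each. Per the submitters' processing notes the tools were MACS2 2.0.10 and bedtools 2.23.0, with BWA 0.7.10, FastQC, Picard 1.107 and SAMtools 0.1.19, and the builds GRCm38, mm10 and mm9; what each tool did is not stated there. MACS lists, as deposited, give a score, a ratio (fold over a control), a −log10 p-value and a −log10 q-value from the authors' peak caller. No source used here says how the authors joined libraries into the condition lists, which carry scores of unstated meaning. Condition lists and MACS lists were used as labelled. Of the second deposited lists of the libraries, the one labelled APH 1 held every origin of the WT condition list and the one labelled CDC6 1 every origin of the APH condition list, while the one labelled CDC6 2 held those of the CDC6 list. The second lists entered no comparison.

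Gene bounds came from the RefSeq table of GRCm38.p6, which gives no exons. Peak numbers, scaled to the mean library total, and peak percentiles were computed with Python 3.11.15 and tested with limma 3.58.1 (R 4.3.3), all 6 libraries sharing 1 spread, with a pseudocount of 1 and a threshold of 0.05 on adjusted p. Each step was tested on simulated data, after which the robust form of eBayes with trend was taken for peak number. The genes changed in the simulation of peak number had more peaks on average than any MCM gene. Recovery at numbers as low as those of the MCM genes was not tested. Groups follow the labels, and depth is unknown, so the number of libraries and of peaks limits precision. Named beside the 9 genes are neighbours sharing a peak or origin and the 3 genes nearest the medians of the 9. Of 33 helicase partners, those called and the 4 with the highest mean percentile are named. The members and lists were chosen with earlier results of these data known. Alternatives varied the pseudocount, scaling, overlap, window, filters, ranking, block and libraries, and plain eBayes and the use of MACS peaks in place of condition lists were added after seeing the data.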

Additional observations from a re-analysis of the deposited data

How the results depend on the processing

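Of 354 values of the 9 genes under alternatives, 322 kept their direction and their side of the threshold, 21 turned, 8 passed the threshold and 3, all without scaling, were exactly 0. For the percentile these values cover only the 5 genes of the main test, so the Mcm5 call given below is not counted among them. Counting overlapping MACS peaks of both libraries in place of origins gave 8 MCM genes for WT, against 5. The number of genes called for peak number, 0 in both comparisons, was 698 (APH minus WT) and 688 (CDC6 minus WT) without scaling and 412 and 435 without the filter on genes with no peak. Without scaling, whole numbers that are equal within pairs leave no spread, and Mcm4 (both comparisons) and Mcm3 (CDC6 minus WT) were among the calls; without the filter these were Mcm4 in APH and Mcm3 in CDC6. For the strongest-peak percentile, a library without a peak set to 0 gave 50 and 51 calls, with Mcm5 among them for APH, ranking by fold gave 2 (CDC6 minus WT), and the gene body alone gave 0 (CDC6 minus WT).

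None of the values that turned passed the test. Peak number, CDC6 minus WT, was 0.31 at Mcm2 in the gene body alone. With peaks of a −log10 q of at least 2, it was 0.073 at Mcm6 for APH minus WT, and for CDC6 minus WT 0.031 at Mcm5 and 0.031 at Mcm6. Mcm9 had a CDC6 percentile difference of -0.025 when ranked by fold. Leaving out each library in turn gave 0 to 607 calls for peak number in APH minus WT and 0 to 1107 in CDC6 minus WT, the highest without WT 2 and without WT 1; for the percentile it gave 0 to 44 and 0 to 288, both highest without WT 1. Where 1 library is left, it is assumed to vary like the other groups. In peak number, APH minus WT then ran from -0.75 to 0.077 at Mcm2 and -1.27 to 0.54 at Mcm7, and CDC6 minus WT from -0.49 to 0.34 at Mcm2, -0.79 to 0.037 at Mcm5, -1.69 to -0.62 at Mcm10 and -0.50 to 1.31 at Mcm7. In percentile points, APH minus WT ran from -5.43 to 0.95 at Mcm3, -6.36 to 17.7 at Mcm6 and -0.88 to 0.14 at Mcm9. CDC6 minus WT ran from -2.85 to 12.9 at Mcm2, -4.38 to 2.01 at Mcm3, -1.58 to 22.5 at Mcm6 and -0.17 to 0.28 at Mcm9. Apart from what the construction shows, the cause was not tested.

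Same-numbered deviations correlated at -0.07 (APH and CDC6), -0.14 (APH and WT) and 0.01 (CDC6 and WT) for peak number over 19450 genes. For the percentile over 13441 genes these correlations were -0.09, -0.20 and 0.02. Libraries of the same replicate number thus showed no clear tendency to deviate together. With the replicate block, 0 genes were called in each of the 4 tests, so the 1 call for the CDC6 percentile was lost and no other count changed.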
